A study of Etheostoma caeruleum with 18 samples.

Results

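The liver transcriptome of rainbow darter (Etheostoma caeruleum), a small river fish, held 195 assembled genes that some fish expressed and other fish were listed without. They were chosen from 302933 rows of a table of transcript abundance in TPM, a share of the library scaled for transcript length. A member averaged below 50 TPM over the 18 fish, reached 5 TPM in at least 4 fish, was listed at 0 in at least 4 fish, and had no other row of mean 1 TPM or more in its assembly component. The rule allowed 200 rows and found 195, so all are included. Measured levels over all fish chose these genes, so their zeros and high values are a description and support nothing. The rule used no group labels, and the direction of a difference between groups is separate from it. It does ask for fish at 0 and fish at 5 TPM or more. Shares of members called, without overlap or absent from a group are therefore not independent of the rule when read beside all genes.

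The fish were caught in the wild, kept for 14 days to clear contaminants, and then exposed for 14 days before the liver was taken. The 3 groups of 6 fish were controls in water without drug, fish in 1 µg/L of R-venlafaxine and fish in 1 µg/L of S-venlafaxine. Venlafaxine is an antidepressant that blocks the reuptake of serotonin and noradrenaline, and R and S name its mirror-image forms. Each library is the liver RNA of 1 fish, and the labels give no sex or age and do not say which fish shared an exposure tank. Every p-value therefore rests on the spread between fish, within which a tank difference cannot be told apart. Where fish of a group shared a tank, a tank difference could also not be told apart from the group difference, and p-values could be too small.

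In a transcriptome built from the reads alone, a component collects assembled sequences that share stretches, and each numbered gene within it is meant to hold the isoforms of a gene. Sequence variants that differ strongly can end in separate entries, and wild animals carry many variants. Genes used by a few cell types, or only in some physiological states, also come and go between individuals of a wild population. The files do not pair these identifiers with gene names or sequences, so no function is attached to any member and the liver label could not be checked against marker genes. Whether a fish listed at 0 lacked a sequence, did not transcribe it, or carried a form assembled elsewhere was not tested. In whole liver, fewer cells of a type and less RNA per cell cannot be told apart.

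Library totals ran from 43.8 to 65.6 M estimated counts. No library stood apart in how many members it lacked. Each fish had 56 to 84 of the 195 genes listed at 0 and 54 to 77 at 5 TPM or more. The number at 0 had a median of 67.5 in controls, 69 in R-venlafaxine fish and 69.5 in S-venlafaxine fish, with overlapping ranges of 60 to 78, 61 to 84 and 56 to 80. The members together held 1084 ± 67.9 TPM in controls, 1248 ± 261 TPM after R-venlafaxine and 1085 ± 177 TPM after S-venlafaxine (SD, n = 6 each). The highest sum, 1662 TPM, was that of R-venlafaxine 5.

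The states were less clean than presence and absence. Of the 3510 values, 35.2% were 0, 32.6% were 5 TPM or more, and the remaining 32.3% lay between. Within that middle part, 737 values were at 1 TPM or more and 395 were below 1 TPM. Only 2 members had no fish between 0 and 5 TPM. Another 49 members had 1 to 3 such fish, 76 had 4 to 7 and 68 had 8 to 10. Such a fish can hold a trace as well as a middle level. In TRINITY_DN13438_c1_g1, an example chosen after its values were seen, 10 fish lay between, at no more than 0.83 TPM. Its other values were 0 in 4 fish and 14.6 to 26.8 TPM in 4. In the strict sense of no fish between, the name present or absent thus fits 2 of the 195. Mean levels ran from 1.54 to 46.2 TPM with a median of 3.96 TPM, and 22 members averaged 10 TPM or more.

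**Figure D1:**
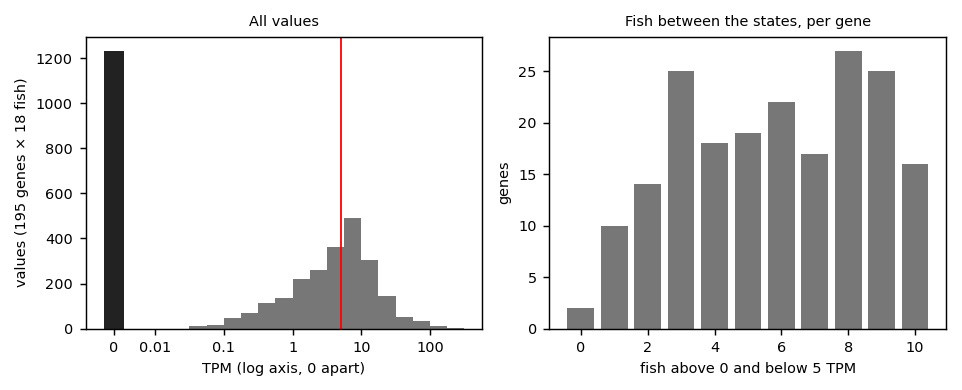
Left, all 3510 values of the 195 genes in 18 fish on a log axis in TPM, with the 1234 values of 0 as a separate bar and a line at 5 TPM. Right, the number of genes by how many of their 18 fish lay above 0 and below 5 TPM, where 2 genes had none and 16 had 10.

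At the edge of the rule, 63 members had exactly 4 fish at 5 TPM or more and 63 had exactly 4 fish at 0. Just outside, 155 rows missed by having only 3 fish at 5 TPM and 65 rows by having only 3 at 0. The most abundant of the former, TRINITY_DN44821_c0_g1, averaged 29.4 TPM with 14 fish at 0. The most abundant of the latter, TRINITY_DN9387_c0_g1, averaged 37.9 TPM with 8 fish at 5 TPM or more. On the side of the mean, 5 rows were above the limit, the nearest being TRINITY_DN32812_c0_g1 at 64.1 TPM, while the highest member stood at 46.2 TPM. The lowest member, TRINITY_DN39286_c2_g2, averaged 1.54 TPM.

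From here on a gene is called present in a fish at 1 TPM or more. A subset of 18 members came close to an on-off switch, with at least a 10-fold step between fish without and with the gene and the fish with it lying within 3-fold of each other (values under 0.01 TPM were set to 0.01 TPM for the step). The 2 examples given next were chosen after their values were seen, and in both of them fish of every group had the gene. TRINITY_DN202_c0_g1 stood at 17.0 to 21.8 TPM in 6 fish, which were controls 1 and 2, R-venlafaxine 1, 4 and 6, and S-venlafaxine 4. The other 12 fish had at most 0.29 TPM, and 9 of them were listed at 0. Its level in the 6 fish thus varied 1.28-fold across all 3 groups. TRINITY_DN74486_c0_g1 stood at 43.2 to 93.8 TPM in controls 1, 3 and 6, R-venlafaxine 6 and S-venlafaxine 3, and at no more than 0.8 TPM in the other 13 fish.

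The widest steps belonged to the 2 members with no fish in between, which follows largely from how the step is set, since 0 counts as 0.01 TPM. TRINITY_DN21111_c0_g1 was listed at 0 in control 4 and R-venlafaxine 3, 4 and 5 and ranged from 7.79 to 43.3 TPM in the other 14 fish. All 6 S-venlafaxine fish had it, at 7.79 to 31.4 TPM with a median of 11.9 TPM, overlapping the 8.47 to 27.9 TPM of the 5 controls that had it. TRINITY_DN45461_c0_g1 was listed at 0 in 13 fish and ranged from 7.03 to 34.1 TPM in 5. Those were control 1 and R-venlafaxine 1, 2, 4 and 5, so no S-venlafaxine fish had this gene.

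The 3 members of highest mean level were high in different but partly shared sets of fish. TRINITY_DN12007_c1_g1 averaged 46.2 TPM only because of 4 fish, at 149 TPM in control 6, 264 and 230 TPM in R-venlafaxine 2 and 3, and 186 TPM in S-venlafaxine 1. Of the other 14 fish, 10 were listed at 0 and the highest reached 1.4 TPM. The group medians were 0 TPM in controls, 0.945 TPM after R-venlafaxine and 0 TPM after S-venlafaxine. TRINITY_DN11465_c8_g1 had 5 fish between 120 and 201 TPM, namely control 1, R-venlafaxine 3 and 5 and S-venlafaxine 2 and 5. The next fish, S-venlafaxine 3, had 8.58 TPM, and 7 fish were listed at 0. These 2 genes therefore peaked together in a single fish, R-venlafaxine 3. TRINITY_DN42531_c0_g1, the third, was present in all controls and is described with its set below.

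**Figure D2:**
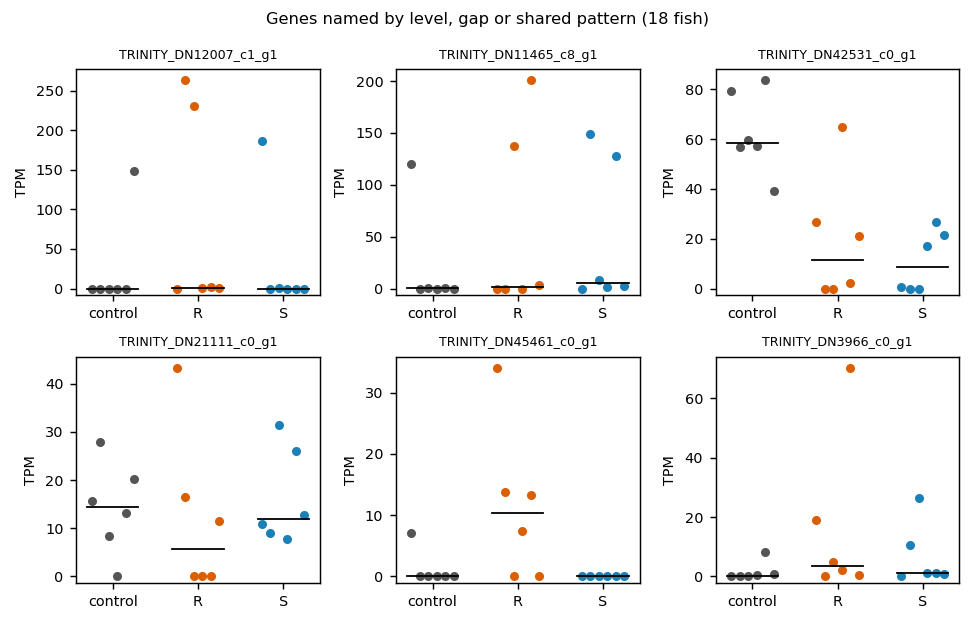
TPM of 6 members in each fish (points), by group, with the group median as a line. The points of TRINITY_DN12007_c1_g1 and TRINITY_DN11465_c8_g1 split into fish above 100 TPM and fish below 10 TPM within every group, and TRINITY_DN45461_c0_g1 has 0 in all S-venlafaxine fish.

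With presence cut at 1 TPM, most members had a pattern of their own. The 195 genes gave 183 different patterns of presence over the 18 fish, and 22 genes shared their pattern with at least 1 other, in 2 sets of 3 and 8 sets of 2. Genes of similar levels can differ in pattern through a value near the cut. TRINITY_DN8186_c0_g1 and TRINITY_DN4902_c0_g1, chosen after seeing values, differed in presence only in S-venlafaxine 6, at 0.78 and 1.9 TPM. The correlation of log2(TPM + 0.1) over the 18 fish, described here without a test because all genes share the same libraries, had a median r of 0 over 18915 pairs of members, with 5th and 95th percentiles of -0.41 and 0.41. It exceeded 0.9 in 57 pairs, which linked 37 members into 12 sets. These sets were formed after the values were seen. The strongest negative r between members was -0.86, and only 1 pair lay below -0.8.

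The largest set, 9 genes led by TRINITY_DN3966_c0_g1, rose and fell by degrees rather than switching (median r 0.95 and lowest r 0.835 within the set). Its summed level was 419 TPM in R-venlafaxine 5, 132 TPM in S-venlafaxine 3, 102 TPM in R-venlafaxine 1 and 59.2 TPM in S-venlafaxine 2. R-venlafaxine 5, R-venlafaxine 1 and S-venlafaxine 3 also had the most genes at 1 TPM or more, at 34500, 33054 and 32825. S-venlafaxine 6 came next at 32556 genes, with a sum of 8.15 TPM for the set. Whether the 2 measures are linked was not tested. Controls 1 and 3 were at 0 for all 9 genes, and control 2, R-venlafaxine 2 and S-venlafaxine 1 summed to less than 1 TPM. Every group thus held fish with and without the set. Its leading gene reached 70.3 TPM in R-venlafaxine 5, where the next fish had 26.3 TPM. Among 27210 other rows of mean 1 TPM or more, 95 correlated above 0.9 with all 9 genes. The row most like TRINITY_DN3966_c0_g1 was TRINITY_DN13953_c0_g1 (r = 0.99, n = 18 fish), at 18.3 TPM in R-venlafaxine 5.

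A set of 4 genes led by TRINITY_DN12007_c1_g1 was high in the same 4 fish. Control 6, R-venlafaxine 2 and 3 and S-venlafaxine 1 summed to 180, 294, 262 and 227 TPM, and the other 14 fish to at most 1.5 TPM. TRINITY_DN88856_c0_g1, another of the 4, stood at 10.7 to 17.9 TPM in the same 4 fish and at 0 in 13 of the rest. TRINITY_DN79595_c0_g1 had 10.5 to 17.2 TPM there and TRINITY_DN39286_c2_g2 had 5.2 to 8.23 TPM. All 4 identifiers carry different numbers and lie in different components. The outside row most like both TRINITY_DN12007_c1_g1 (r = 0.96) and TRINITY_DN88856_c0_g1 (r = 0.98) was the same, TRINITY_DN81763_c0_g1. That row had 5.67, 6.46, 3.93 and 4.35 TPM in those 4 fish and was listed at 0 in the other 14.

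Another set of 4, led by TRINITY_DN42531_c0_g1, was on in every control and off in part of both exposed groups. Its summed level was 72.4 to 149 TPM in the 6 controls. In R-venlafaxine fish it was 63.8, 130 and 60.5 TPM in fish 1, 4 and 6, but 0 in fish 2 and 3 and 5.76 TPM in fish 5. In S-venlafaxine fish it was 52.0, 66.7 and 48.4 TPM in fish 4, 5 and 6, but 2.25 TPM in fish 1 and 0 in fish 2 and 3. The same 6 exposed fish were therefore low for all 4 genes, 3 in each exposed group, and no control was. The row outside the members most like TRINITY_DN42531_c0_g1, TRINITY_DN8456_c0_g1 (r = 0.98), was never at 0. It had 1.8 to 5.55 TPM in those 6 fish and 48.8 to 149 TPM in the other 12, and 9 outside rows correlated above 0.9 with all 4 members.

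In edgeR none of these 4 genes passed. TRINITY_DN42531_c0_g1 had 39.2 to 83.8 TPM in controls (median 58.3), 0 to 64.8 TPM after R-venlafaxine (median 11.6) and 0 to 26.9 TPM after S-venlafaxine (median 8.79). All S-venlafaxine values lay below all control values, while R-venlafaxine overlapped the controls. Its log2 fold change was -2.57 ± 1.56 (SE; adjusted p = 1 in edgeR) for S-venlafaxine against control and -1.76 ± 1.52 (SE; adjusted p = 1 in edgeR) for R-venlafaxine against control. Both comparisons use the same controls. The other 3 genes had log2 fold changes of -2.14, -1.4 and -1.71 for S-venlafaxine against control, each with an adjusted p of 1 in edgeR.

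Among the sets linked by pairs above 0.9, the 2 of 3 genes differed in which exposed group had most fish with the set. The set led by TRINITY_DN1033_c12_g1 was on in 4 of 6 S-venlafaxine fish, with sums of 79.1 to 166 TPM in fish 1 to 4, against control 3 at 105 TPM and R-venlafaxine 3 at 116 TPM. All other fish summed to at most 2.32 TPM. The set led by TRINITY_DN16816_c1_g1 was on in 4 of 6 R-venlafaxine fish, with sums of 41.8 to 84.1 TPM in fish 1, 2, 4 and 5, and in control 1 at 32.2 TPM. S-venlafaxine fish summed to 0 apart from fish 1 at 0.4 TPM, and the other controls to at most 0.85 TPM. TRINITY_DN45461_c0_g1, described above, is a member of this set.

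**Figure D3:**
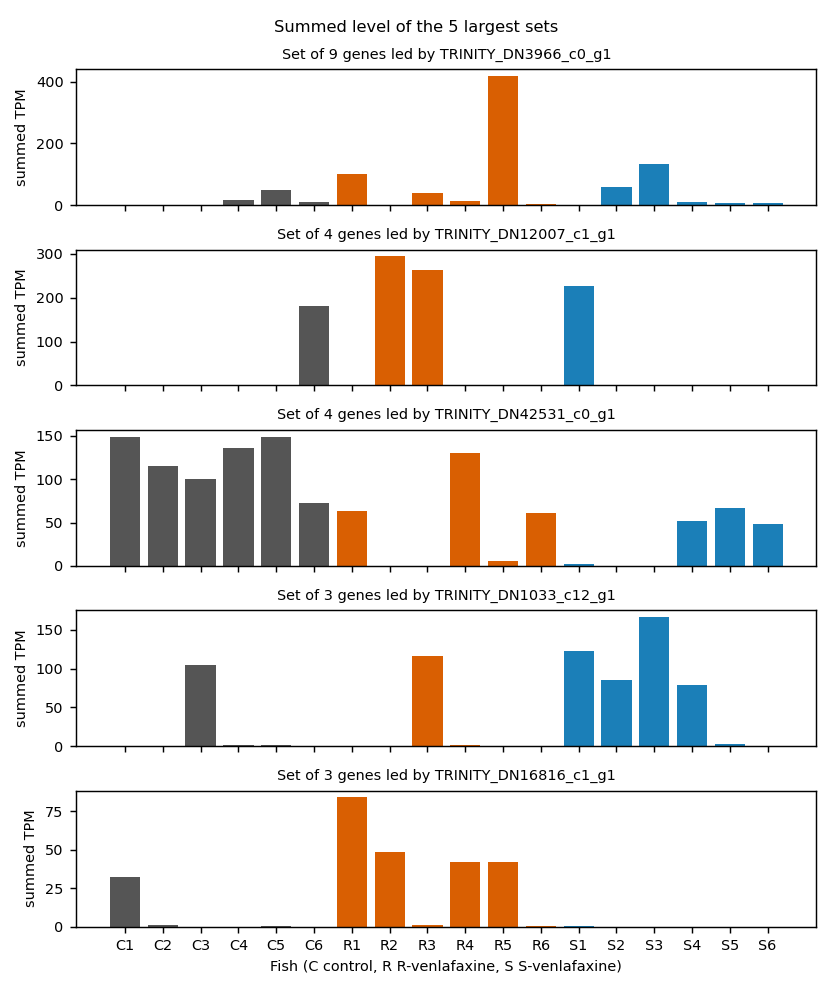
Summed TPM per fish of the 5 largest sets of members linked by pairs that correlated above 0.9, formed after seeing the values. Bars start at 0 and are coloured by group, and the set led by TRINITY_DN42531_c0_g1 is above 70 TPM in all controls and below 6 TPM in 3 fish of each exposed group.

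Fish of the same group were compared over all 195 members, the correlated sets included. For any 2 fish, the share of members in the same state (present in both or in neither) was 41.5% to 66.2%. Its median was 52.3% over the 45 pairs from the same group and 52.3% over the 108 pairs from different groups. Pairs whose library names carry the same letter A, B or C, whose meaning the labels do not state, had a median of 51.3%, and pairs of different letters 52.8%. No test was made of these shares, since the pairs reuse the same fish.

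**Figure D4:**
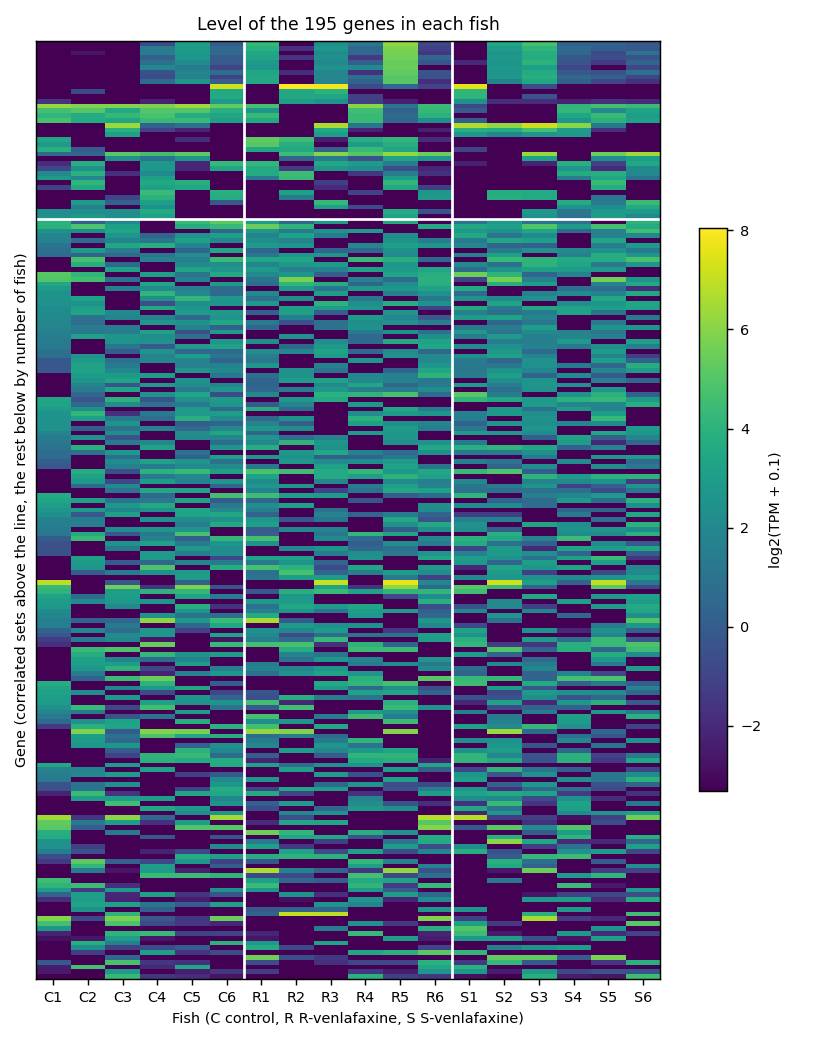
log2(TPM + 0.1) of the 195 genes (rows) in each of the 18 fish (columns), with white lines between groups and below the 37 genes of the correlated sets. Below that line the rows are ordered by the number of fish at 1 TPM or more, and bright and dark cells lie side by side within every group.

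The rule leaves a member no other row of mean 1 TPM or more in its component, so what follows on components is a description. Of the 195, 160 are the only row of their component, and the other 35 share it with 70 rows that each average at most 0.864 TPM. Among those 70 rows, r with the member was above 0.5 in 1 and below -0.5 in 2. Rows at 0 in every fish, such as TRINITY_DN60646_c0_g1, have no r. Others lie near 0, such as TRINITY_DN9162_c0_g3 at a mean of 0.0217 TPM, where a low r says little about following or opposing the member. The identifier's first number, which the assembler gives to a wider cluster of sequences, held no other row of mean 1 TPM or more for 132 members. For the other 63 it held up to 27 such rows, the member included. Only for those 63 could the most like or the most opposite outside row carry the same first number, and in none of them did it.

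The closest rows outside the members were less alike for 3 other named genes. For TRINITY_DN11465_c8_g1 the most like row, TRINITY_DN12942_c0_g1, had r = 0.78, and for TRINITY_DN21111_c0_g1 it was TRINITY_DN6282_c0_g2 with r = 0.81. For TRINITY_DN45461_c0_g1 it was TRINITY_DN538_c0_g1 with r = 0.81, a row that never fell below 3.7 TPM. The most opposite rows for the named members had r between -0.84 and -0.77. The strongest of them, TRINITY_DN42131_c0_g1 against TRINITY_DN88856_c0_g1, was on in every fish, at no more than 33.2 TPM in the 4 fish with the member and 35.8 to 56.2 TPM in the other 14. Of the 195 members, 47 had an outside row with r above 0.9. These are the highest and lowest of 27210 values of r each, over the same 18 libraries, and are given as a description.

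The comparison of R-venlafaxine with control asks which genes respond to that form. Of the 189 members that passed the filter on low counts, 0 were called in edgeR's quasi-likelihood test at an adjusted p under 0.05, and 0.0% of all 59733 genes were. At an unadjusted p under 0.05 there were 2 members, 1 higher and 1 lower, 1.06% of those tested against 3.24% of all genes. DESeq2 also called 0 members, where it called 0.117% of all genes. Limma on log2(TPM + 0.1) called 0 members and 0 of all 37637 genes it tested. The members' median log2 fold change was 0.03, against 0 over all genes. Present fish were more numerous after R-venlafaxine for 81 members and fewer for 79, and 122 members differed by 1 fish or none. A difference of 4 or more fish was seen in 4 members.

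In that comparison the member lower with the lowest p was TRINITY_DN6102_c3_g1. It had 0.91 to 10.6 TPM in controls (median 5.41), 0 to 1.28 TPM in R-venlafaxine fish (median 0, 4 of 6 at 0) and 0 to 15.9 TPM in S-venlafaxine fish (median 1.5). The controls and R-venlafaxine fish overlapped through control 6 at 0.91 TPM. The log2 fold change was -4.25 ± 1.46 (SE; adjusted p = 1 in edgeR). TRINITY_DN25049_c0_g1 was next, with a control median of 9.34 TPM against 0.77 TPM, and a log2 fold change of -3.37 ± 1.66 (SE; adjusted p = 1 in edgeR). In the other direction, TRINITY_DN14955_c0_g1 was high in a single R-venlafaxine fish, at 47.5 TPM in fish 1 with at most 0.56 TPM in the other 5 and 1.33 TPM in the highest control. Its log2 fold change was 4.91 ± 2.31 (SE; adjusted p = 1 in edgeR). TRINITY_DN3043_c0_g1, of the set of 9, had a highest value of 32.8 TPM in R-venlafaxine 5 and 3.22 TPM in the highest control, with a log2 fold change of 3.44 ± 1.64 (SE; adjusted p = 1 in edgeR). Without R-venlafaxine 5, a setting chosen after seeing the data, that value was 2.197.

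The comparison of S-venlafaxine with control asks the same for the other form. Again 0 of 189 members were called in edgeR, where 0.00167% of all genes were called. At an unadjusted p under 0.05 there were 9 members, 1 higher and 8 lower, 4.76% of those tested against 3.23% of all genes. DESeq2 called 2 members, both lower, where it called 0.101% of all genes. With limma on log2(TPM + 0.1), 0 members and 0 of all 37637 genes tested were called. The median log2 fold change of the members was -0.04, against 0.01 over all genes. Present fish were more numerous after S-venlafaxine for 75 members and fewer for 65, with a difference of 4 or more fish in 6.

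The members behind the 2 DESeq2 calls were listed at 0 in all 6 S-venlafaxine fish, so no fold change is given. TRINITY_DN13854_c0_g1 had 10.9, 6.9 and 12.6 TPM in controls 1, 3 and 6 and 0 in the other 3. In R-venlafaxine fish it ranged from 0 to 9.93 TPM (median 5.57), with 1 fish at 0. Between S-venlafaxine and control the adjusted p was 1 in edgeR and 1.52e-27 in DESeq2. TRINITY_DN48773_c2_g1 had 0 to 9.93 TPM in controls (median 5.5), with 1 fish at 0, and 0 to 6.04 TPM in R-venlafaxine fish, with 4 at 0. For this gene the adjusted p was 1 in edgeR and 1.79e-20 in DESeq2. In both genes some controls were at 0 too, so the groups overlapped at 0. Over the alternatives tried, the adjusted p ran from these DESeq2 values up to 1.

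Higher after S-venlafaxine, TRINITY_DN14955_c0_g1 had the lowest p. It stood at 38.8, 38.9 and 53.5 TPM in S-venlafaxine 2, 3 and 5 and at 0 to 0.87 TPM in the other 3, against 5 of 6 controls at 0. Its log2 fold change was 6.48 ± 2.47 (SE; adjusted p = 1 in edgeR). TRINITY_DN35065_c0_g1 rested on few fish, at 66.3 TPM in S-venlafaxine 2 and 11.3 TPM in S-venlafaxine 3, with 5 controls at 0 and control 1 at 5.49 TPM. Its log2 fold change of 3.69 ± 2.09 (SE; adjusted p = 1 in edgeR) was smaller than 2 SE.

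Without overlap between S-venlafaxine and control there were 2 members, both lower, beside 0.193% of the 27405 genes of mean 1 TPM or more. They were TRINITY_DN42531_c0_g1 and TRINITY_DN187_c18_g1. The latter had 3.65 to 10.4 TPM in controls (median 5.59), 0 to 4.38 TPM after R-venlafaxine (median 0.88) and 0 to 1.17 TPM after S-venlafaxine (median 0). Its log2 fold change was -3.92 ± 1.56 (SE; adjusted p = 1 in edgeR) for S-venlafaxine and -2.10 ± 1.43 (SE; adjusted p = 1 in edgeR) for R-venlafaxine against the same controls. No member was without overlap between R-venlafaxine and control, where the share over all such genes was 0.15%.

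The mirror-image forms were compared at the same nominal dose and time. In edgeR 0 of 189 members were called, beside 0.00167% of all genes. At an unadjusted p under 0.05 there were 7 members, 1 higher and 6 lower after S-venlafaxine, 3.7% of those tested against 3.45% of all genes. DESeq2 called 2 members, the same 2 as before and both lower after S-venlafaxine, where it called 0.117% of all genes. Again limma on log2(TPM + 0.1) called 0 members and 0 of all 37637 genes. Present fish were more numerous after S-venlafaxine for 75 members and fewer for 73, with a difference of 4 or more fish in 9.

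TRINITY_DN13854_c0_g1 again had the lowest p between the forms, with 5 of 6 R-venlafaxine fish and 0 of 6 S-venlafaxine fish above 0 (adjusted p = 1 in edgeR and adjusted p = 1.29e-27 in DESeq2). TRINITY_DN119229_c0_g1, of the set led by TRINITY_DN16816_c1_g1, had 10.4 TPM or more in 4 of 6 R-venlafaxine fish (group median 10.8), 1.09 TPM in fish 3 and 0 in fish 6, and at most 0.4 TPM after S-venlafaxine. The log2 fold change was -7.13 ± 2.21 (SE; adjusted p = 1 in edgeR), and controls other than control 1 at 14.6 TPM had at most 0.85 TPM. Higher after S-venlafaxine were TRINITY_DN6102_c3_g1, by a log2 fold change of 3.8 ± 1.43 (SE; adjusted p = 1 in edgeR), and TRINITY_DN8710_c0_g1. The latter had 6.8 to 18.9 TPM in S-venlafaxine fish, all 6 with the gene, against 0 to 12.1 TPM in R-venlafaxine fish, 4 of them at 0. Its log2 difference of 1.93 had a 95% interval from -0.98 to 4.83, so neither equal levels nor a large difference is shown. Only TRINITY_DN16816_c1_g1 was without overlap between the forms (0.113% over all genes), at 0.09 to 38.9 TPM after R-venlafaxine and 0 in every S-venlafaxine fish. It was present in only 4 of 6 R-venlafaxine fish. R-venlafaxine 3 and 6 had 0.09 and 0.17 TPM, so the lack of overlap rests on traces set against 0.

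**Figure D5:**
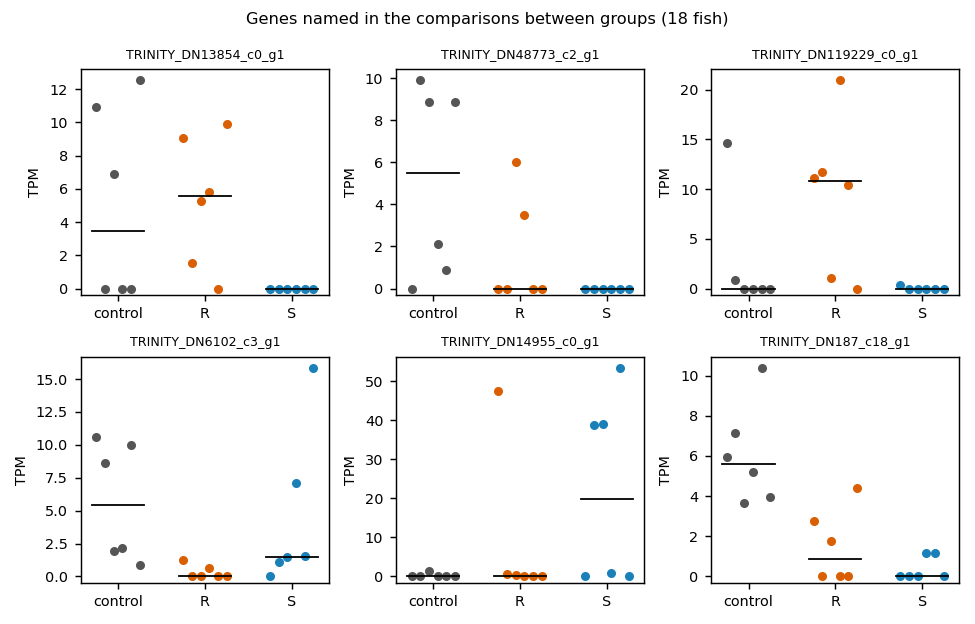
TPM in each fish (points) by group, with the group median as a line, for 5 members named by their p between groups and TRINITY_DN187_c18_g1, whose controls all lie above all S-venlafaxine fish. TRINITY_DN13854_c0_g1 and TRINITY_DN48773_c2_g1 are at 0 in all 6 S-venlafaxine fish but also in 3 and 1 of the controls.

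Absence from a whole group occurred among the members for S-venlafaxine fish alone, and this difference between groups was not tested. Below 1 TPM in all 6 fish were 8 members for S-venlafaxine and 0 for either other group, and 5 of the 8 were listed at 0 throughout. Of all 27405 genes of mean 1 TPM or more, 0.307% were below 1 TPM in all S-venlafaxine fish, against 0.405% for controls and 0.46% for R-venlafaxine. The shares listed at 0 in all 6 fish were 0.0912%, 0.0803% and 0.113%. Over all genes the S-venlafaxine group was thus not the one with most such absences. The rule asks for fish at 0, so members and all genes are not alike in this. The 8 are not independent of each other, since 3 belong to the set led by TRINITY_DN16816_c1_g1. Library totals were 47.4 to 51.5 M counts for S-venlafaxine, 43.8 to 65.6 M for controls and 51.7 to 62.4 M for R-venlafaxine, and the part of depth in these absences was not tested. Presence in all 6 fish of a group was seen for 10 members in controls, 7 in R-venlafaxine fish and 8 in S-venlafaxine fish.

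The spread between fish limits what these tests could show for such genes. The median SE of a member's log2 fold change was 1.61 in each comparison, against 0.526 over all genes tested. The rule asks for fish that lack a gene beside fish that express it, which favours a wide spread. The larger SE of members is therefore not independent of the rule and is given as a description. The 6 members that failed the filter on low counts were present in only 4 or 5 fish, TRINITY_DN16816_c1_g1, TRINITY_DN45461_c0_g1 and TRINITY_DN88856_c0_g1 among them, so the edgeR counts do not cover them.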

How the data were processed

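Liver polyA RNA of 18 fish was sequenced from strand-preserving libraries, per the labels' protocols. Trimmomatic 0.36, Bowtie2 2.2.7 and RSEM 1.3.1 are listed, per the submitters' processing notes. How they were set is not given in these sources. The authors deposited TPM values rounded to 0.01 and a table of estimated counts. For 99.977% of values the deposited estimated count equalled the TPM rescaled to the library total, within 0.0055 TPM, so it is not a number of reads and count-based variances are approximate for genes of low level.

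Members were found by script, and they and the rules for naming genes were chosen with earlier results of these data known. Named were, per comparison, the 2 higher and 2 lower members of lowest p, the 3 of highest mean, the 2 with the widest step, the leading member of the 3 largest sets of equal presence, and the genes next to each limit of the rule. Most like and most opposite outside rows were sought for the members of highest mean, widest step and equal presence. Any other gene, such as members without overlap, members of the described sets and rows given as examples, was named after values were seen. Estimated counts were rounded, filtered by group with edgeR's filterByExpr, which kept 59733 genes (count of at least 10, total of at least 15), scaled by TMM and tested over all 18 libraries with edgeR 4.0.16 in R 4.3.3 (robust quasi-likelihood, group means, two-sided, Benjamini-Hochberg over all genes). The test was tried on simulated data. Alternatives used DESeq2 1.42.0 and limma-trend 3.58.1 on log2(TPM + 0.1) and log2(TPM + 1) for genes of mean 0.5 TPM or more, which all members reach. Other steps used Python 3.11.15 and networkx 3.6.1. Correlations are Pearson's r of log2(TPM + 0.1), apart from those between same-numbered fish, which used log2 CPM less the group mean.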

Additional observations from a re-analysis of the deposited data

Results flagged for a closer look

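A fish was marked when its gap to the nearest other fish took up most of its group's range. Among 60 sets of 6 values this happened 17 times, always in the 48 sets of the 16 named members and never in the 12 sets of library measures. Chance marks about 1 set in 20, a rate that does not hold here, since a gene that is on in 1 fish of a group is marked by its nature.

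In control 6, TRINITY_DN12007_c1_g1 stood at 149.11 TPM and TRINITY_DN88856_c0_g1 at 11.8 TPM, with the next controls at 0 and 0.46 TPM. In S-venlafaxine 1 the same genes stood at 186.35 and 17.85 TPM, with the next fish at 0.52 and 0 TPM. Control 1 was alone with TRINITY_DN11465_c8_g1 at 120.25 TPM, TRINITY_DN45461_c0_g1 at 7.03 TPM, TRINITY_DN35065_c0_g1 at 5.49 TPM and TRINITY_DN119229_c0_g1 at 14.61 TPM, the next control having at most 1 TPM. R-venlafaxine 5 led its group for TRINITY_DN3966_c0_g1 at 70.32 TPM and TRINITY_DN3043_c0_g1 at 32.82 TPM, where the next fish had 19.08 and 11.5 TPM. Control 5 led the controls for these genes at 8.13 and 3.22 TPM, the next having 0.92 and 0.53 TPM. TRINITY_DN14955_c0_g1 was at 47.53 TPM in R-venlafaxine 1 and at 1.33 TPM in control 3. TRINITY_DN35065_c0_g1 was at 12.16 TPM in R-venlafaxine 6 and at 66.28 TPM in S-venlafaxine 2. TRINITY_DN119229_c0_g1 was at 0.4 TPM in S-venlafaxine 1, the only fish of its group above 0.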

How the results depend on the processing

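The count of members called was 0 in all 3 comparisons in every setting tried, except with DESeq2. DESeq2 called 2 when S-venlafaxine was set against control and 2 when it was set against R-venlafaxine, beside 0.101% and 0.117% of all genes. The cause was not tested. In every other setting only 0 or 1 of all genes tested were called in a comparison, so a count of 0 does not set the members apart. With the replicate number as a block it was also 0 in each. Same-numbered fish of different groups correlated at -0.06 to 0.1 in what remained of log2 CPM after each group's mean was subtracted from every gene tested. In that measure 6 of 18 libraries correlated best with their own number, and how many chance would give was not tested. The numbers are not treated as a pairing. Without R-venlafaxine replicate 5, a setting chosen after seeing the data, the count of members called was 0 as well. At an unadjusted p under 0.05, limma on log2(TPM + 0.1) had 19, 14 and 12 members, against 2, 9 and 7 in edgeR, which is 9.74%, 7.18% and 6.15% of members beside 4.1%, 4.13% and 3.91% of all genes in limma. Members without overlap were unchanged in number on TMM-scaled CPM, while over all genes they went from 41 to 63 with R-venlafaxine set against control and from 31 to 54 with S- set against R-venlafaxine. The number in clean states rests on the limits, going from 2 to 52 with presence at 1 TPM, to 12 at 2 TPM and to 16 where values up to 0.5 TPM count as absent. The number sharing a pattern went from 22 to 11 with presence above 0 TPM and to 10 at 0.1 TPM. The fold changes of members named by their p, and of the 2 members without overlap between S-venlafaxine and control, kept their direction in every setting, but their size did not hold. Of 13 such values, leaving aside genes at 0 in a whole group, 11 moved by over 1.5 times with the replicate block, 6 with the library letter as a block and 1 without R-venlafaxine replicate 5. With limma's pseudocounts of 0.1 and 1, 10 and 12 moved. For TRINITY_DN35065_c0_g1 the log2 fold change for S-venlafaxine ran from 1.43 to 6.93, and for TRINITY_DN42531_c0_g1 from -5.64 to -2.56. None moved that far with DESeq2, RLE scaling or no filter on low counts. Other members named by pattern were not compared in this way. The depth of reads behind a single value is unknown, so no interval is given for a value of 0.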

Other observations

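Of the 195 members, 8 had a row of mean 1 TPM or more that reached 1 TPM in exactly the fish where the member did not, and 31 had a row present in exactly the same fish. For TRINITY_DN202_c0_g1, on in 6 fish, the opposite row was TRINITY_DN37648_c0_g1, with 0 to 0.74 TPM in those 6 fish and 1.61 to 7.61 TPM in the other 12. An opposite row need not switch between off and on, since a small change around 1 TPM is enough. Of the opposite rows, TRINITY_DN1550_c0_g3, an example chosen after its values were seen, ran only from 0.55 to 1.75 TPM over all fish. TRINITY_DN4360_c0_g1, chosen likewise, ran from 0.44 to 2.85 TPM. Others spanned more, such as TRINITY_DN23_c11_g1 at 0 to 18.4 TPM. A single member had an outside row with r below -0.9 on log2(TPM + 0.1). How many such matches chance would give was not tested.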
